A study of Mus musculus with 7 samples.

Results

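The genes described here are 38 components of T cell receptor signalling, chosen by name as receptor chains, kinases, adaptors, phosphatases and the calcium-NFAT and Ras branches. All 38 were present among the 24084 gene symbols of the table, and all 38 were among the 11376 genes with enough reads to be tested. They were compared between regulatory T cells (Tregs, CD4 T cells that restrain immune responses and express Foxp3) from telogen skin and the same cells from skin-draining lymph nodes (SDLN), all from 6-week-old mice. Every mouse was of the strain labelled Foxp3-DTR, which the series text also writes Foxp3-DTR/GFP, so that the allele placed on Foxp3 was shared by both groups. No treatment is named. How the sort was gated, and how many animals went into a library, is not stated in the labels. There were 3 SDLN and 4 skin libraries. Because the labels do not say that libraries came from separate animals, the p-values measure the spread between libraries, which may in part be technical.

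A T cell recognises peptide bound to an MHC molecule through the alpha and beta chains of its receptor, which cannot signal by themselves. The associated CD3 and zeta chains carry tyrosine motifs that the kinase Lck, brought close by the coreceptor CD4, phosphorylates. Zap70 then docks and phosphorylates the scaffold Lat, on which adaptors and phospholipase C gamma assemble. From there a soluble messenger opens calcium stores and drives calcineurin and NFAT. A lipid messenger, diacylglycerol, activates Ras and protein kinase C theta. Protein kinase C theta leads through a complex that holds Bcl10 and Malt1 to NF-kappaB. Tregs depend on signals from their receptor to keep their suppressive function, and Malt1 is also known as a protease that cleaves regulators of immune activation.

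Upstream sequence is printed for Lck, Txk, Dgka and Grb2, which are 4 of the 5 members that passed the test described below. Each window holds the 200 bases before a RefSeq start site (build GRCm38.p6, the same assembly as mm10), 5′ to 3′ on the strand of the gene, and windows were taken where the first transcribed bases were found in a GENCODE M21 transcript of the gene. Lck and Txk each have a far and a near start site, the use of which cannot be read from counts per gene. Capitals mark matches on either strand to TGANTCA for AP-1, TGTGGT for RUNX, CTTTGA for TCF/LEF, CCGGAA for ETS or TGTTTAC for forkhead factors, and no match overlapped another.
Lck far start, chr4:129573642-129573841, minus strand: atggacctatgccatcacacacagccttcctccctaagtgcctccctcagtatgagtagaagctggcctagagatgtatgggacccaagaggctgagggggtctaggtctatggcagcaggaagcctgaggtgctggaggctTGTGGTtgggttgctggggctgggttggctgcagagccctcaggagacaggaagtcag
Lck near start, chr4:129558373-129558572, minus strand: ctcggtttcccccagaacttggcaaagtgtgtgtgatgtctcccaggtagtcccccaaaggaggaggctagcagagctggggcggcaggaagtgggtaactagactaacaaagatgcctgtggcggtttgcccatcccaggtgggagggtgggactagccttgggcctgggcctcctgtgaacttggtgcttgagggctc
Txk far start, chr5:72752778-72752977, minus strand: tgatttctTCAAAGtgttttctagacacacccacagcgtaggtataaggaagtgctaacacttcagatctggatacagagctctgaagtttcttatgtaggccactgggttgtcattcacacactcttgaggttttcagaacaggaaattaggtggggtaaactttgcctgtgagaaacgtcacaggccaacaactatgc
Txk near start, chr5:72736603-72736802, minus strand: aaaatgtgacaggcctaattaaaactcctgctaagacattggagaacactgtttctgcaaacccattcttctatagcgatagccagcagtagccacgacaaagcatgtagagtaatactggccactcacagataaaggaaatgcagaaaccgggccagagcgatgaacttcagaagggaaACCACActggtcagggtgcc
Dgka, chr10:128743879-128744078, minus strand: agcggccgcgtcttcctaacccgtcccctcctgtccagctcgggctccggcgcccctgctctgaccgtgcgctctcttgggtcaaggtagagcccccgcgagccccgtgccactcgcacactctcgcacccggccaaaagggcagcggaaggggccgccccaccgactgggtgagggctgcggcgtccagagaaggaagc
Grb2, chr11:115699535-115699734, minus strand: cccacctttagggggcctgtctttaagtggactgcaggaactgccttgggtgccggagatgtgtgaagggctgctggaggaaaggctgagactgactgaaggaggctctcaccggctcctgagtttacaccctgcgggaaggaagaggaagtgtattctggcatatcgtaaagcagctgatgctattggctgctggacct
The far Lck window held 1 RUNX match, which began 58 bases before the start site. The far Txk window held 1 TCF/LEF match and the near one 1 RUNX match, while the near Lck, Dgka and Grb2 windows held none of the 5 motifs. Shares were also taken over all 32851 RefSeq windows of this length, whether or not found in a GENCODE transcript. Of these 11.2% held the RUNX letters, 10.9% the TCF/LEF letters, 10.7% the ETS letters, 5.5% the AP-1 letters and 2.5% the forkhead letters. These are matches of letters and say nothing of binding.

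Reads assigned to genes numbered 13123241 to 14785751 in the SDLN libraries and 11009609 to 13921238 in skin, and values below are CPM, that is counts scaled to the TMM-adjusted library size. Across the members, log2(CPM + 1) had Pearson correlations of 0.974 to 0.992 for pairs within SDLN, 0.704 to 0.899 for pairs within skin and 0.597 to 0.845 for pairs of 1 SDLN and 1 skin library; the points share their libraries and are genes, not replicates. The coefficient of variation of a member had a median of 0.107 in SDLN and 0.4302 in skin, against 0.187 and 0.7499 over all tested genes. The Treg markers were Foxp3, Il2ra, Ctla4, Ikzf2, Ikzf4, Tnfrsf18 and Tnfrsf4. Together they stood at 6773 to 7843 CPM in SDLN and 8672 to 14268 CPM in skin, lowest in skin 3. Ctla4 (mean 651 CPM in SDLN and 3820 CPM in skin) and Ikzf2 (1320 and 2938 CPM) were called higher in skin. Foxp3, Tnfrsf18 and Tnfrsf4 had higher means in skin and Il2ra and Ikzf4 lower ones, none of them called. Of 13 macrophage and dendritic markers 12 had a higher mean in skin, with sums of 16.2 to 24.7 CPM in SDLN and 224 to 970.0 CPM in skin, while Cd207 was at 0 in every library. Of these markers 8 were tested, and 2, Lyz2 and Cd209a, were called higher and 0 lower. Adgre1 and Itgax lay almost wholly in skin 4, and Fcgr1 and C1qa in skin 2. Fibroblast and keratinocyte markers summed to 1997 and 561 CPM in skin 3 and to at most 8.84 and 20.7 CPM in the other skin libraries. Of the CD8 T cell markers Cd8a, Cd8b1, Eomes and Gzmk, the last 2 were at 0 in skin, with sums of 43.8 to 48.04 CPM in SDLN and 0.09 to 69.04 CPM in skin. Cd8a was at 0 in skin 1 to 3 and at 46.2 CPM in skin 4. B cell markers summed to 78.6 to 102 CPM in SDLN and 2.99 to 38.4 CPM in skin. Pecam1, an adhesion molecule of endothelium and some leukocytes, was at 488 ± 87.4 CPM over the 3 SDLN libraries (mean ± SD) against 40.8 ± 19.1 CPM over the 4 skin libraries and was called lower in skin (log2 fold change -3.58, edgeR adjusted p = 0.00856). Of the other endothelial markers, Kdr was at 0 in every library and Cdh5 had reads in skin 3 alone, at 7.76 CPM. Genes with at least 1 read numbered 13408 to 13845 in SDLN and 9690 to 12639 in skin. The title and source of skin 1 say skin, whereas 1 of its tags says lymph node. SDLN 3 alone had more than 2 reads of the Y-linked gene Ddx3y, with 3877. It had 4 reads of Xist, a transcript of female cells, against 4653 to 11758 in the other libraries. By these genes SDLN 3 was male and every other library female, so that SDLN 3 came from other animals than the rest. The part that other cells or these differences have in the results below was not tested.

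Most of the pathway did not pass the test between the tissues, and the members that did moved in both directions. By edgeR's quasi-likelihood test, with p-values adjusted over all 11376 genes by Benjamini-Hochberg and a gene called at an adjusted p under 0.05, the kinases Lck and Txk and the diacylglycerol kinase Dgka were lower in skin, and the adaptor Grb2 and the paracaspase Malt1 were higher. That is 5 of 38 members (13.2%), beside 7.24% of all tested genes. By direction it is 2 of 38 higher, beside 3.28% of all tested genes, and 3 of 38 lower, beside 3.96%. At an unadjusted p under 0.05 there were 6 higher and 11 lower members, beside 10% and 8.52% of all tested genes. The median log2 fold change, skin over SDLN, was -0.35 over the members and 0.05 over all tested genes. This order turned round in other fits: it was -0.46 over the members and -0.62 over all genes with limma-voom, and -0.42 and -0.54 with the replicate number as a block. In bulk RNA of sorted cells, fewer cells that express a gene and less RNA per cell cannot be told apart.

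In 12 members every skin library lay below every SDLN library (31.6%, beside 16.5% of all tested genes), and in 7 every skin library lay above (18.4%, beside 10.1%). The mean CPM had a median of 263.9 over the members and 33.14 over all tested genes. These shares, like those of the calls above, therefore compare genes of unlike level, and the part of level in them was not tested. The lower ones were Cd3d, Cd3e, Cd4, Cd5, Lck, Txk, Lat, Themis, Dgka, Prkcq, Ptpn6 and Ubash3a. The higher ones were Grb2, Plcg1, Rasgrp1, Malt1, Ppp3ca, Nfatc2 and Csk. The other 19 members overlapped. All members together summed to 25840.0 to 28266 CPM in SDLN and 12549 to 22193 CPM in skin, and skin 3, the library with fibroblast and keratinocyte reads, had the lowest sum.

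Calls, of members as of all genes, were far fewer when an SDLN library was left out, and the reason was not tested. No member was called when any 1 SDLN library was left out (edgeR). Of all genes tested, 0.329% were then called higher and 0.076% lower without SDLN 1. Without SDLN 2 it was 0.279% and 0.0847%, and without SDLN 3 0.515% and 0.127%. At an unadjusted p under 0.05 (edgeR) there were 13, 14 and 12 members without SDLN 1, 2 and 3. The share of all genes at that threshold was not computed for these fits. For each fit below, the shares of all genes tested in it that were called higher and lower stand beside the count. Without skin 1, the library with the conflicting tag, 3 members were called higher (Grb2, Malt1 and Rasgrp1) and 6 lower (Dgka, Lcp2, Prkcq, Ptpn6, Ptprc and Txk), beside 5.13% and 5.7%. Without skin 3, 3 were higher (Grb2, Malt1 and Nfatc2) and 3 lower (Dgka, Lck and Txk), beside 4% and 7.33%. Leaving out skin 2 left Malt1 higher and Dgka, Lck, Themis and Txk lower, beside 3.78% and 4.8%. Leaving out skin 4 left Malt1 higher and Txk lower, beside 2.78% and 5.27%. With DESeq2, 5 were higher and 7 lower, beside 8.11% and 4.46%, and with limma-voom 1 and 5, beside 2.38% and 6.41%. Without scaling beyond the library size the split was 2 higher and 5 lower, beside 3.36% and 4.08%. When libraries were scaled on the summed CD3 chains, it was 6 higher and 1 lower, beside 7.74% and 3.12%. Under that scaling the median log2 fold change of all genes moved from 0.05 to 0.95 and that of the members from -0.35 to 0.51. The CD3 chains are themselves members with lower means in skin. Scaling on them makes their sum equal in all libraries and raises the skin values of other genes, so it cannot test the chains.

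**Figure D1:**
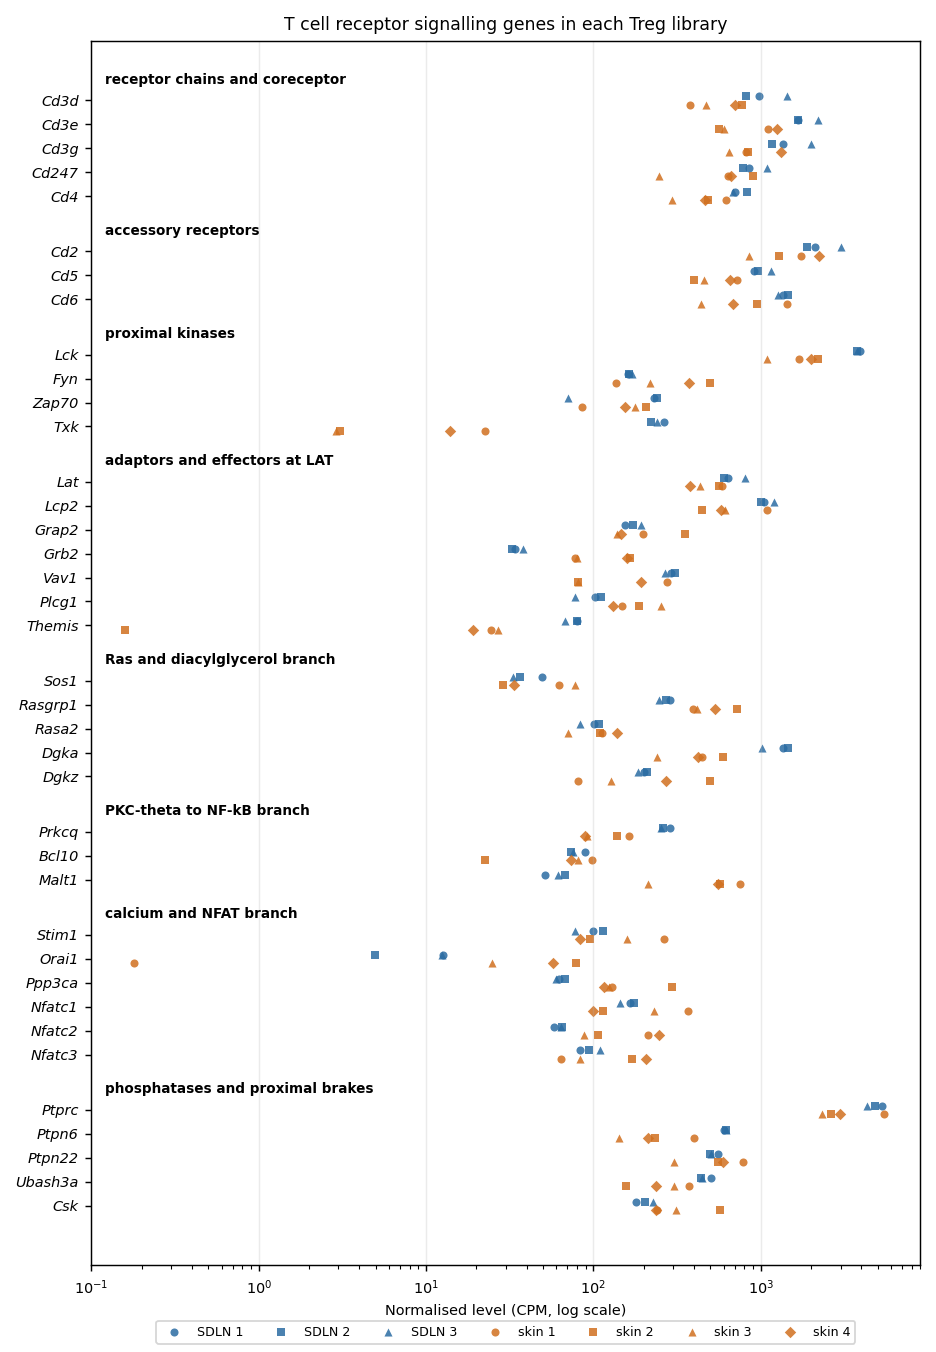
Normalised levels of the 38 members (CPM, horizontal log axis) in each of the 3 SDLN libraries (blue) and 4 skin libraries (orange), grouped by role, with 1 symbol per library. The SDLN points of most genes lie close together, whereas skin points spread more widely, and Txk and Malt1 show the widest gaps between the tissues.

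None of the 5 receptor chains and coreceptor genes passed the test (edgeR). There were 0 higher and 4 lower at an unadjusted p under 0.05, 0 and 1 with DESeq2 and 0 and 0 with limma-voom. Of all tested genes 7.24% passed, and 10% were higher and 8.52% lower at an unadjusted p under 0.05 (edgeR). With DESeq2 8.11% were called higher and 4.46% lower, and with limma-voom 2.38% and 6.41%. These shares also stand beside the counts of each role group and list below. At such shares 0 calls in a short list do not set it apart. All 5 receptor chain and coreceptor genes had means below SDLN in skin, with log2 fold changes of -1.07 to -0.56. Scaled on the CD3 chains themselves, which fixes the sum of the chains in advance, Cd3g, Cd247 and Cd4 had small positive values. Cd3e, the epsilon chain that pairs with both the gamma and the delta chain, had 1678, 1662 and 2203 CPM in SDLN 1 to 3, against 1112, 560.4, 606 and 1248 CPM in skin 1 to 4. Its groups did not overlap, with a log2 fold change of -1.07 (SE 0.34) and an adjusted p of 0.118; with DESeq2 it passed (adjusted p = 0.0303, and 0.0303 to 0.666 over all alternatives). Cd3d, the delta chain, had 978, 819.9 and 1445 CPM in SDLN 1 to 3, against 376, 771, 470.0 and 703 CPM in skin 1 to 4 and did not overlap either, by a narrow margin (log2 fold change -0.9, adjusted p = 0.179). Cd3g, the gamma chain, was at 1506 ± 442 CPM over the 3 SDLN libraries (mean ± SD) against 907 ± 293 CPM over the 4 skin libraries, and skin 4, at 1329 CPM, lay above SDLN 2, at 1163 CPM (log2 fold change -0.73, adjusted p = 0.26). In SDLN 3 all 4 chains were above SDLN 1 and 2.

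Cd247, which encodes the zeta chain with the most tyrosine motifs of the complex, was at 904 ± 161 CPM over the 3 SDLN libraries (mean ± SD) against 613 ± 269.9 CPM over the 4 skin libraries and overlapped (log2 fold change -0.56, adjusted p = 0.557). By the GENCODE annotation 56.4% of its exon length lies opposite exons of other genes, Pou2f1 among them, and with the strand setting of the counting not stated its reads are less certain than those of the other chains, for which the share was at most 3.3%. Cd4, the coreceptor that binds MHC class II and carries Lck, had 704, 827 and 682 CPM in SDLN 1 to 3, against 618, 486, 297 and 462 CPM in skin 1 to 4. Every skin library was below every SDLN library for Cd4, with skin 1 the nearest (log2 fold change -0.66, adjusted p = 0.246).

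The tissues overlapped in the relative level of each CD3 chain. As a share of the summed CPM per kilobase of exon over the 4 chains, Cd3d made up 35.2 ± 1.904% (mean ± SD, n = 3) in SDLN against 34.7 ± 8.37% (n = 4) in skin. Cd3e made up 27.3 ± 2.44 against 23.4 ± 7.51%, Cd3g 27.2 ± 1.17 against 29.7 ± 3.01% and Cd247 10.2 ± 0.667 against 12.1 ± 4.37%. The single libraries of skin differed more than those of SDLN: the Cd3e share was 32.1, 13.9, 22.8 and 24.97% in skin 1 to 4 and 27.01, 29.9 and 25.1% in SDLN 1 to 3. The ratio of Cd4 to the summed chains, also per kilobase, was 0.115, 0.151 and 0.0786 in SDLN 1 to 3, against 0.181, 0.122, 0.113 and 0.0935 in skin 1 to 4, and overlapped as well.

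**Figure D2:**
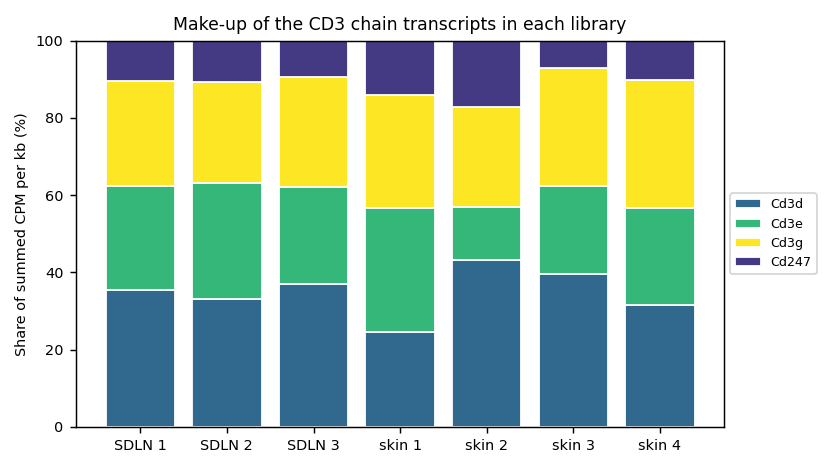
Share of each chain (%, vertical axis from 0) in the summed CPM per kilobase of exon of Cd3d, Cd3e, Cd3g and Cd247, 1 stacked bar per library. The 3 SDLN bars are nearly alike, and among skin libraries the Cd3e share runs from 13.9% in skin 2 to 32.1% in skin 1.

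The accessory receptors Cd2, Cd5 and Cd6 did not pass the test, beside 7.24% of all tested genes that did (edgeR). There were 0 higher and 1 lower at an unadjusted p under 0.05, 0 and 1 with DESeq2 and 0 and 0 with limma-voom. The log2 fold changes of these receptors, -0.85 to -0.62, turned slightly positive when libraries were scaled on the CD3 chains. Cd5, a scavenger-type receptor that dampens receptor signals and whose level is known to follow their strength, had 914, 959.7 and 1149 CPM in SDLN 1 to 3, against 725, 398, 460.4 and 655 CPM in skin 1 to 4. Its groups did not overlap (log2 fold change -0.85, SE 0.27, edgeR adjusted p = 0.119), and it passed with DESeq2 (adjusted p = 0.036, and 0.036 to 0.983 over all alternatives). Cd2, an adhesion receptor for Cd48 in the mouse, was at 2343 ± 607 CPM over the 3 SDLN libraries (mean ± SD) against 1524 ± 585 CPM over the 4 skin libraries and overlapped (log2 fold change -0.62, adjusted p = 0.423). Cd6, a relative of Cd5, was at 1365 ± 97.3 CPM over the 3 SDLN libraries (mean ± SD) against 877 ± 429 CPM over the 4 skin libraries (log2 fold change -0.64, adjusted p = 0.455). Its skin values ran from 442 CPM in skin 3 to 1441 CPM in skin 1, the latter within the SDLN range.

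Of the 4 proximal kinases, Txk and Lck fell in skin and Fyn and Zap70 did not pass. Txk, a Tec family kinase also called Rlk (chromosome 5, 72695978 to 72752777, minus strand), had 266, 221 and 241 CPM in SDLN 1 to 3, against 22.6, 3.07, 2.91 and 13.98 CPM in skin 1 to 4. The groups lay far apart, with skin 2 and skin 3 lowest, and the level was 22.8-fold lower in skin (log2 fold change -4.51, SE 0.79, edgeR adjusted p = 0.0243). The skin values were well above the 0.214 to 0.276 CPM that 3 counts stand for. Without 1 SDLN library the adjusted p of Txk was 0.0971 to 0.114, and over all alternatives it was 6.46e-08 to 0.114.

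Lck, the Src family kinase that starts the cascade (chromosome 4, 129548344 to 129573641, minus strand), was the second most abundant member per kilobase in both tissues and had 3933, 3770.1 and 3738 CPM in SDLN 1 to 3, against 1690.3, 2213, 1097 and 1997 CPM in skin 1 to 4. The SDLN libraries were tightly grouped and every skin library was lower, by 2.18-fold on average (log2 fold change -1.12, SE 0.26, edgeR adjusted p = 0.0406). The adjusted p of Lck was 0.165 to 0.177 without 1 SDLN library, 0.0574 without skin 1, 0.0765 without skin 4 and 0.474 when libraries were scaled on the CD3 chains, within 0.00237 to 0.474 over all alternatives. Set against the summed CD3 chains of the same library, per kilobase, Lck was at 0.882, 0.946 and 0.593 in SDLN 1 to 3, against 0.6805, 0.766, 0.574 and 0.556 in skin 1 to 4, and the tissues overlapped.

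Fyn, the other Src family kinase of T cells, had 162, 164 and 169.9 CPM in SDLN 1 to 3, against 136, 498, 218 and 374 CPM in skin 1 to 4. Skin 1 lay below SDLN and the other 3 skin libraries above (log2 fold change 0.89, SE 0.44, edgeR adjusted p = 0.349). It passed when libraries were scaled on the CD3 chains (adjusted p = 0.0493, and 0.0493 to 0.696 over all alternatives). Zap70, which docks on phosphorylated chains of the receptor, had 231, 239 and 70.2 CPM in SDLN 1 to 3, against 85.4, 205, 177 and 155 CPM in skin 1 to 4. SDLN 3, the library with Y-linked reads, was lowest of all for Zap70, and the tissues overlapped (log2 fold change -0.21, adjusted p = 0.899).

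Ratios within a library do not depend on how libraries are scaled. They were chosen after the values were seen, so that they are given with no test. Per kilobase of exon, the ratio of Fyn to Lck was 0.0276, 0.0293 and 0.0305 in SDLN 1 to 3, against 0.0539, 0.151, 0.133 and 0.126 in skin 1 to 4, so that every skin library was above SDLN. The ratio of Txk to Lck was 0.0181, 0.0157 and 0.0172 in SDLN 1 to 3, against 0.00357, 0.000371, 0.000709 and 0.00187 in skin 1 to 4. That of Lck to Csk, the kinase that phosphorylates the inhibitory tyrosine of Lck, was 27.8, 23.5 and 20.9 in SDLN 1 to 3, against 9.04, 4.96, 4.46 and 10.7 in skin 1 to 4. Skin libraries were lower than SDLN in both of these.

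**Figure D3:**
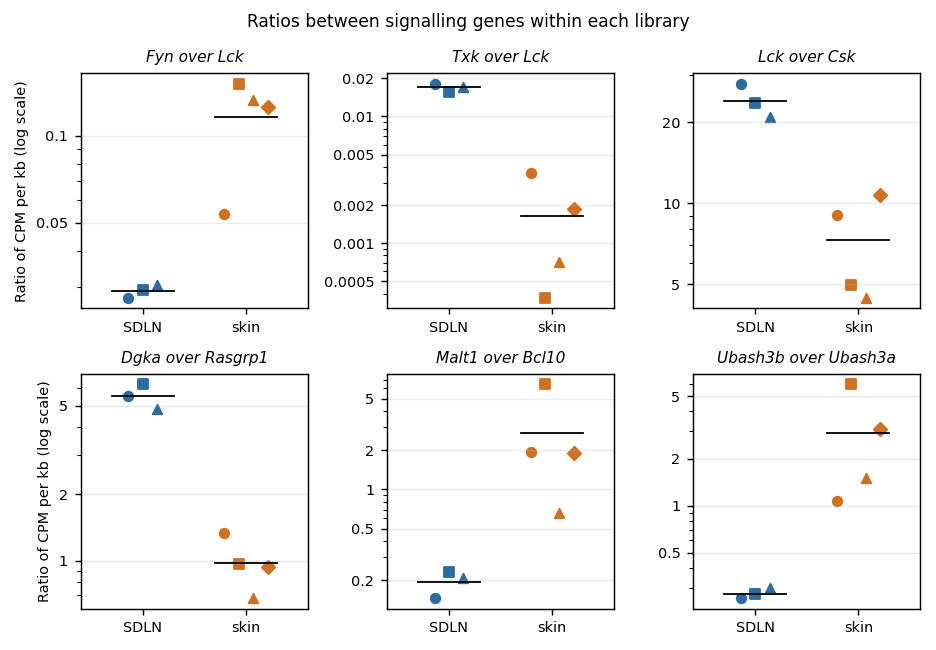
Ratios of CPM per kilobase of exon between pairs of genes (vertical log axes) in 3 SDLN libraries (blue) and 4 skin libraries (orange), with circle, square, triangle and diamond for libraries 1 to 4 and a line at the arithmetic mean. The 6 pairs were picked after the values were seen and each holds a called gene, so that their separation is no separate support. In each panel the tissues do not overlap. Fyn over Lck runs from 0.0276 to 0.0305 in SDLN and from 0.0539 to 0.151 in skin. Of ratios not drawn, Dgka over Dgkz and both Lck and Cd4 over the CD3 chains overlapped.

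Among the 7 adaptors and effectors that gather at Lat, Grb2 rose and the other 6 did not pass. Grb2, an adaptor that joins tyrosine-phosphorylated proteins to the Ras activator Sos and is made in nearly all cells (chromosome 11, 115644045 to 115708597, minus strand), had 33.9, 32.7 and 38.1 CPM in SDLN 1 to 3, against 77.9, 165, 79.3 and 158 CPM in skin 1 to 4. Skin 2 and 4 were highest and skin 1 and 3 lowest, all above SDLN, a 3.44-fold difference (log2 fold change 1.78, SE 0.43, edgeR adjusted p = 0.0443). It was close to the threshold: its adjusted p was 0.171 to 0.223 without 1 SDLN library, 0.0664 without skin 2 and 0.0944 without skin 4, and 0.00101 to 0.358 over all alternatives. Macrophage and dendritic markers, summing to 16.2 to 24.7 CPM in SDLN and 224 to 970.0 CPM in skin, were also higher in skin, and their part in the Grb2 result was not tested. Per kilobase, the ratio of Grb2 to Grap2 (the T cell adaptor Gads, which links Lat to Lcp2) was 0.469, 0.406 and 0.424 in SDLN 1 to 3, against 0.837, 1.004, 1.22 and 2.32 in skin 1 to 4. Grap2 itself was at 173 ± 18.96 CPM over the 3 SDLN libraries (mean ± SD) against 209 ± 99.3 CPM over the 4 skin libraries (log2 fold change 0.27, adjusted p = 0.806), and skin 2 was the highest library, at 353 CPM.

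Lat, the membrane scaffold, had 637, 606 and 806 CPM in SDLN 1 to 3, against 589, 559.9, 431 and 376 CPM in skin 1 to 4. Its skin and SDLN values did not overlap, though skin 1 and SDLN 2 were close (log2 fold change -0.48, SE 0.24, edgeR adjusted p = 0.365). Lcp2, the adaptor also known as SLP-76, was at 1085 ± 107 CPM over the 3 SDLN libraries (mean ± SD) against 681 ± 279.5 CPM over the 4 skin libraries (log2 fold change -0.67, adjusted p = 0.323); skin 1, at 1086 CPM, lay within SDLN, and without that library it passed (adjusted p = 0.0317, and 0.0317 to 0.768 over all alternatives). Vav1, a guanine nucleotide exchange factor for Rac, was at 289 ± 20.7 CPM over the 3 SDLN libraries (mean ± SD) against 158 ± 94.2 CPM over the 4 skin libraries (log2 fold change -0.87, adjusted p = 0.391), again with skin 1, at 275 CPM, within SDLN. Lat and Lcp2 had positive values under CD3 scaling, at 0.43 and 0.23.

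Plcg1, the phospholipase that makes the second messengers, had 102, 111 and 77.8 CPM in SDLN 1 to 3, against 149, 188, 254 and 130.3 CPM in skin 1 to 4, with every skin library above SDLN (log2 fold change 0.9, SE 0.33, edgeR adjusted p = 0.181). Themis, a T cell protein that tunes signal strength during thymic selection, had 79.7, 80.1 and 68.04 CPM in SDLN 1 to 3, against 24.4, 0.16, 26.8 and 19.2 CPM in skin 1 to 4. Skin was below SDLN in every library, with skin 2 nearly without reads, below the 0.243 CPM that 3 counts stand for there (log2 fold change -2.11, SE 1.14, edgeR adjusted p = 0.401). Without skin 2 Themis passed (adjusted p = 0.0393, and 0.0393 to 0.703 over all alternatives).

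In the Ras and diacylglycerol branch, Dgka fell and Sos1, Rasgrp1, Rasa2 and Dgkz did not pass. Dgka, the diacylglycerol kinase alpha, which removes the lipid that activates Rasgrp1 and is known as a gene of anergic T cells (chromosome 10, 128720134 to 128744855, minus strand), had 1359.6, 1456 and 1023 CPM in SDLN 1 to 3, against 448, 592, 240.4 and 425 CPM in skin 1 to 4. Every skin library was at or below 592 CPM and every SDLN library at or above 1023 CPM, a 3.0-fold lower level in skin (log2 fold change -1.58, SE 0.32, edgeR adjusted p = 0.038). Its adjusted p was 0.119 to 0.176 without 1 SDLN library, 0.0643 without skin 4 and 0.183 under CD3 scaling, within 0.000271 to 0.183 over all alternatives. Dgkz, its zeta relative, had 199.6, 209 and 185 CPM in SDLN 1 to 3, against 81.0, 497, 128 and 269.9 CPM in skin 1 to 4. Skin 1 and 3 were below and skin 2 and 4 above SDLN, so that the tissues overlapped (log2 fold change 0.3, adjusted p = 0.873).

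Rasgrp1, the Ras activator that diacylglycerol recruits, had 289, 273 and 248 CPM in SDLN 1 to 3, against 394, 717, 416 and 532 CPM in skin 1 to 4. Each skin library was above SDLN (log2 fold change 0.93, SE 0.28, edgeR adjusted p = 0.0981), and it passed with DESeq2 (adjusted p = 0.0226), without skin 1 (0.0479) and under CD3 scaling (0.0264), within 0.0226 to 0.358 over all alternatives. The ratio of Dgka to Rasgrp1 per kilobase was 5.53, 6.26 and 4.85 in SDLN 1 to 3, against 1.34, 0.972, 0.679 and 0.938 in skin 1 to 4, lower in every skin library. The ratio of Dgka to Dgkz was 8.97, 9.18 and 7.28 in SDLN 1 to 3, against 7.28, 1.57, 2.48 and 2.07 in skin 1 to 4, and skin 1 reached the SDLN range. Sos1, the second Ras activator, was at 39.5 ± 8.45 CPM over the 3 SDLN libraries (mean ± SD) against 50.8 ± 23.4 CPM over the 4 skin libraries (log2 fold change 0.36, adjusted p = 0.819). Rasa2, a Ras GTPase-activating protein that restrains T cells, was at 97.04 ± 12.7 CPM over the 3 SDLN libraries (mean ± SD) against 108 ± 27.9 CPM over the 4 skin libraries (log2 fold change 0.15, adjusted p = 0.895). Both overlapped between the tissues.

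In the branch from protein kinase C theta to NF-kappaB, Malt1 rose while its partner Bcl10 did not pass and Prkcq, the kinase upstream, had lower values without passing. Malt1 (chromosome 18, 65430938 to 65479067, plus strand) had 51.3, 67.5 and 61.8 CPM in SDLN 1 to 3, against 751, 571, 211 and 558 CPM in skin 1 to 4. Even skin 3, the lowest skin library, was above every SDLN library, and the level was 8.69-fold higher in skin (log2 fold change 3.12, SE 0.46, edgeR adjusted p = 0.0119). Malt1 had the smallest adjusted p of the 38 members. Without 1 SDLN library its adjusted p was 0.0854 to 0.1 and its log2 fold change 3.0 to 3.2, and over all alternatives the adjusted p was 4.1e-10 to 0.11. Per kilobase it was at 3.34 ± 0.457 CPM per kb (mean ± SD, n = 3) in SDLN, against 28.98 ± 12.5 CPM per kb (n = 4) in skin, the lowest of the 38 members in SDLN and number 24 in skin.

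Bcl10, which assembles with Malt1 into filaments, was at 79.3 ± 8.29 CPM over the 3 SDLN libraries (mean ± SD) against 68.8 ± 32.6 CPM over the 4 skin libraries (log2 fold change -0.2, adjusted p = 0.908). Skin 2, at 22.4 CPM, stood below the 73.6 to 98.4 CPM of the other 6 libraries. The ratio of Malt1 to Bcl10 per kilobase was 0.146, 0.232 and 0.207 in SDLN 1 to 3, against 1.93, 6.45, 0.662 and 1.91 in skin 1 to 4. Every skin library was above SDLN in this ratio. Prkcq had 288, 261 and 254 CPM in SDLN 1 to 3, against 163, 138, 91.8 and 88.6 CPM in skin 1 to 4, without overlap (log2 fold change -1.15, SE 0.3, edgeR adjusted p = 0.0583). It passed with DESeq2 (adjusted p = 0.00997), limma-voom (0.0307), without scaling (0.0388) and without skin 1 (0.0317), and its adjusted p was 0.00997 to 0.704 over all alternatives.

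All 6 genes of the calcium and NFAT branch had positive log2 fold changes (0.32 to 2.0), as had 5890 of all 11376 tested genes. None of the 6 passed the test, beside 7.24% of all tested genes that did (edgeR). There were 2 higher and 0 lower at an unadjusted p under 0.05, 2 and 0 with DESeq2 and 0 and 0 with limma-voom. Without skin 1, the log2 fold change of Nfatc1 was negative. Ppp3ca, a catalytic subunit of the phosphatase calcineurin, had 62.1, 67.2 and 59.6 CPM in SDLN 1 to 3, against 128, 294, 124 and 115 CPM in skin 1 to 4. Every skin library was above SDLN, with skin 2 apart from the rest (log2 fold change 1.39, SE 0.42, edgeR adjusted p = 0.103). Nfatc2, one of the transcription factors that calcineurin frees to enter the nucleus, had 58.3, 64.8 and 64.3 CPM in SDLN 1 to 3, against 211, 107, 87.96 and 245 CPM in skin 1 to 4, also without overlap (log2 fold change 1.38, SE 0.43, edgeR adjusted p = 0.118). With DESeq2 both passed (adjusted p = 0.0224 for Ppp3ca and 0.0271 for Nfatc2), as they did under CD3 scaling (0.0304 and 0.0222). Over all alternatives the adjusted p was 0.0224 to 0.363 for Ppp3ca and 0.0222 to 0.456 for Nfatc2, which also passed without skin 3.

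Nfatc1, which T cells induce on activation, had 166, 176 and 145 CPM in SDLN 1 to 3, against 366, 115, 229.9 and 99.4 CPM in skin 1 to 4. Skin 1 and 3 were above and skin 2 and 4 below SDLN (log2 fold change 0.32, adjusted p = 0.822). Nfatc3, another NFAT factor, was at 95.8 ± 13.1 CPM over the 3 SDLN libraries (mean ± SD) against 131 ± 67.6 CPM over the 4 skin libraries (log2 fold change 0.45, adjusted p = 0.712). Stim1, the calcium sensor of the endoplasmic reticulum, had its highest values in skin 1 and 3, as Nfatc1 did, at 99.7, 114 and 78.2 CPM in SDLN 1 to 3, against 263, 95.05, 159 and 82.7 CPM in skin 1 to 4 (log2 fold change 0.62, adjusted p = 0.567). Orai1, the pore of the channel that Stim1 opens, was at 12.6, 4.97 and 12.4 CPM in SDLN 1 to 3, against 0.18, 78.2, 24.7 and 57.1 CPM in skin 1 to 4. Its skin 1 value was below the 0.276 CPM that 3 counts stand for, while the other 3 skin libraries were above SDLN (log2 fold change 2.0, SE 1.43, edgeR adjusted p = 0.557).

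None of the 5 phosphatases and proximal brakes passed, beside 7.24% of all tested genes that did (edgeR). There were 0 higher and 2 lower at an unadjusted p under 0.05, 0 and 1 with DESeq2 and 0 and 1 with limma-voom. Ptpn6, the phosphatase SHP-1, came nearest and had 604, 619 and 616 CPM in SDLN 1 to 3, against 399, 234, 142 and 213 CPM in skin 1 to 4. The SDLN libraries were almost equal and every skin library was lower, with skin 3 lowest (log2 fold change -1.31, SE 0.34, edgeR adjusted p = 0.0642). Ptpn6 passed with DESeq2 (adjusted p = 0.00989), limma-voom (0.0231), without scaling (0.0382) and without skin 1 (0.0176), and its adjusted p was 0.00989 to 0.478 over all alternatives. Ubash3a, a member of the Sts family that damps receptor signals, had 502, 438 and 445 CPM in SDLN 1 to 3, against 373, 157, 303 and 238 CPM in skin 1 to 4, without overlap (log2 fold change -0.79, adjusted p = 0.224); under CD3 scaling its value was slightly positive.

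Ptprc, the receptor phosphatase CD45 that all white blood cells carry and that activates Lck, had 5328, 4804 and 4294 CPM in SDLN 1 to 3, against 5458, 2645, 2314 and 2963 CPM in skin 1 to 4. Skin 1 was above all SDLN libraries and the other 3 skin libraries below (log2 fold change -0.52, adjusted p = 0.471); without skin 1 it passed (adjusted p = 0.0328, and 0.0328 to 0.826 over all alternatives). Ptpn22, a phosphatase that acts on Lck and Zap70, was at 521 ± 31.1 CPM over the 3 SDLN libraries (mean ± SD) against 559.8 ± 199 CPM over the 4 skin libraries (log2 fold change 0.1, adjusted p = 0.923). Csk had 181, 205 and 228 CPM in SDLN 1 to 3, against 239, 569, 314 and 237 CPM in skin 1 to 4. All skin libraries were above SDLN, skin 1 and 4 narrowly and skin 2 by the widest margin (log2 fold change 0.73, SE 0.36, edgeR adjusted p = 0.351).

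**Figure D4:**
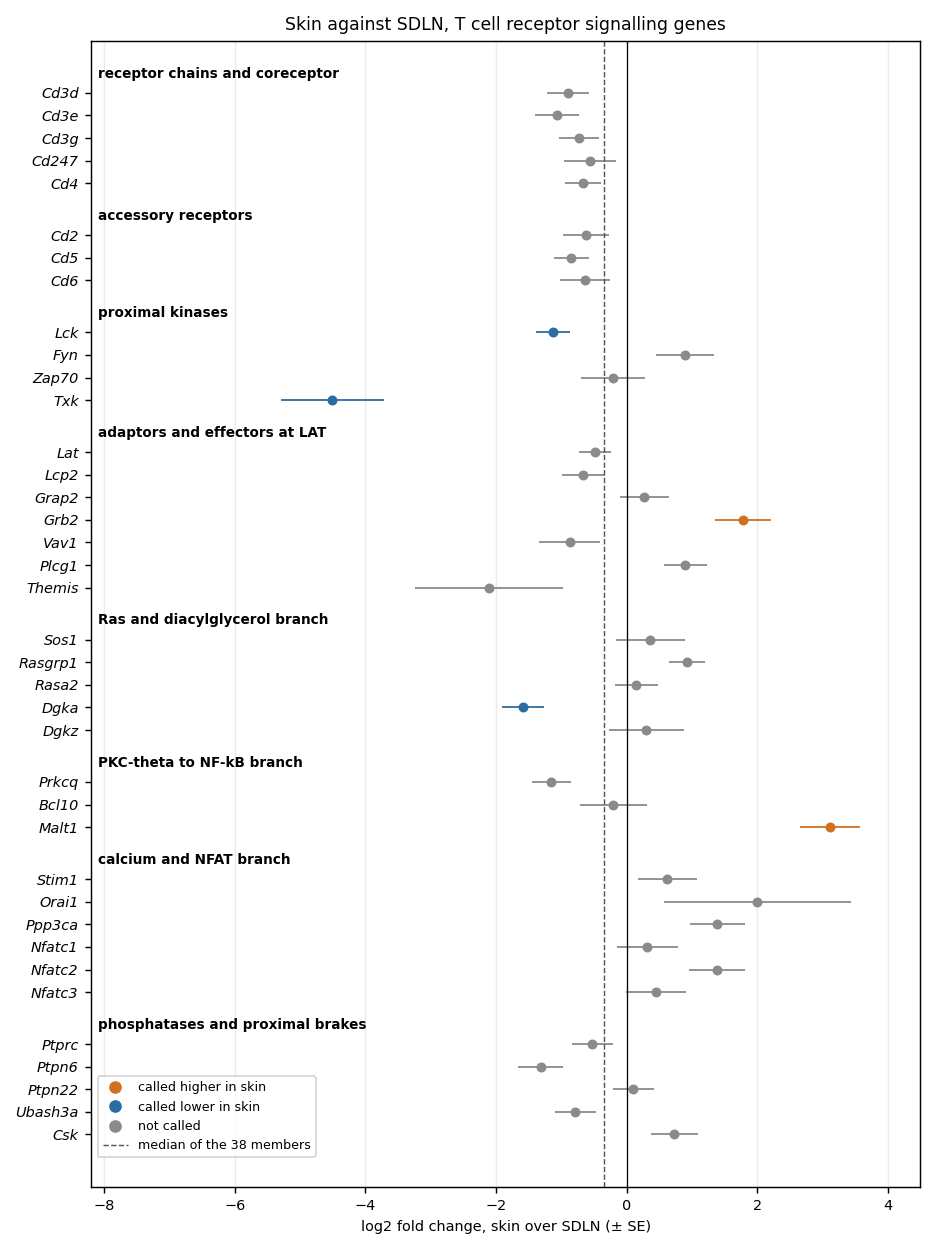
log2 fold change, skin over SDLN (horizontal axis), with its SE as the bar, for each of the 38 members grouped by role. Coloured points passed the test (orange higher, blue lower), grey ones did not, and the dashed line is the members' median of -0.35; under scaling on the CD3 chains that median was 0.51.

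Levels of different members were compared per kilobase of exon, where the exon length is the union over all annotated transcripts, so that genes with long and seldom used exons come out low. Cd2, Lck, Cd3d, Cd3g and Cd3e were the highest 5 in both tissues and in that order. Cd2 was at 1346 ± 349 CPM per kb (mean ± SD, n = 3) in SDLN, against 876 ± 336 CPM per kb (n = 4) in skin. Lck was at 1302 ± 35.7 CPM per kb (mean ± SD, n = 3) in SDLN, against 597 ± 166 CPM per kb (n = 4) in skin. The difference between Cd2 and Lck was within the SD of Cd2 in SDLN. Dgka held place 6 in SDLN and 15 in skin, and Txk place 25 and 38, the last. Grb2 held place 29 in SDLN and 21 in skin. Ranks of members with close levels are not distinguished by these libraries.

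A further 88 genes of the pathway were taken from a list made by role; all were tested, and 4 were called higher and 1 lower (5.68%, beside 7.24% of all tested genes). Their median log2 fold change was 0.44. None was called without SDLN 1 or SDLN 2, and 1 was without SDLN 3. In those fits at most 0.515% of all tested genes were called higher and at most 0.127% lower. With DESeq2 8 were higher and 6 lower, beside 8.11% and 4.46% of all tested genes. Under CD3 scaling 14 were higher and 0 lower, beside 7.74% and 3.12%. Of 3 costimulatory receptors, Icos, a relative of Cd28 that activated and effector T cells carry, rose, with 784, 725 and 1216 CPM in SDLN 1 to 3, against 5629, 4168, 2949 and 3990.5 CPM in skin 1 to 4 (log2 fold change 2.2, SE 0.31, edgeR adjusted p = 0.0116). Cd28 (log2 fold change 0.26, adjusted p = 0.85) and Cd27 (log2 fold change -0.7, adjusted p = 0.249) did not pass.

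Of 25 further genes of the Ras, MAP kinase and PI3 kinase routes, 2 were called higher. Rasgrp4 was 1 of them. It is a Ras activator best known from mast cells and had 4.61, 7.59 and 6.26 CPM in SDLN 1 to 3, against 75.8, 198, 43.4 and 91.7 CPM in skin 1 to 4 (log2 fold change 4.05, SE 0.67, edgeR adjusted p = 0.0198). Every skin library was above SDLN. Of the mast cell markers, Cpa3, Mcpt4 and Fcer1a were at 0 in all skin libraries, and Kit had 10.8, 10.6 and 4.56 CPM in SDLN 1 to 3, against 0, 0.16, 9.43 and 26.2 CPM in skin 1 to 4, so that the list summed to 6.64 to 12.6 CPM in SDLN and 0 to 26.2 CPM in skin. Macrophage and dendritic markers summed to 16.2 to 24.7 CPM in SDLN and 224 to 970 CPM in skin. The part of other cells in the Rasgrp4 result was not tested. Exons on the other strand lie opposite 18.2% of the exon length of Rasgrp4. With the strand setting not stated, some reads counted for Rasgrp4 may belong to other genes. The MAP kinase gene Mapk3 (log2 fold change 1.52, adjusted p = 0.109) and its activator Map2k1 (log2 fold change 1.38, adjusted p = 0.183) did not pass.

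Of 16 further brakes, Ubash3b rose and Lax1 fell. Ubash3b, the Sts-1 relative of Ubash3a, had 84.2, 77.5 and 86.03 CPM in SDLN 1 to 3, against 262, 611, 295 and 481 CPM in skin 1 to 4 (log2 fold change 2.32, SE 0.37, edgeR adjusted p = 0.0163). All skin libraries were at least 262 CPM and no SDLN library was above 86.03 CPM. The ratio of Ubash3b to Ubash3a per kilobase was 0.257, 0.272 and 0.296 in SDLN 1 to 3, against 1.07, 5.96, 1.49 and 3.104 in skin 1 to 4, higher in each skin library. Lax1, a membrane adaptor that inhibits antigen receptor signals, had 169, 153 and 171 CPM in SDLN 1 to 3, against 47.3, 70.8, 43.5 and 47.1 CPM in skin 1 to 4 (log2 fold change -1.66, SE 0.31, edgeR adjusted p = 0.0318), and the tissues did not overlap.

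No gene was called by edgeR among 19 further proximal kinases, adaptors and effectors, 10 of the NF-kappaB branch and 15 of the calcium branch. Of all tested genes 7.24% were called. In the first list there were 0 higher and 3 lower at an unadjusted p under 0.05, 0 and 3 with DESeq2 and 0 and 2 with limma-voom. The NF-kappaB list had 1 higher and 3 lower at an unadjusted p under 0.05, 1 and 2 with DESeq2 and 0 and 1 with limma-voom. The calcium list had 2 higher and 0 lower at an unadjusted p under 0.05, 0 and 0 with DESeq2 and 0 and 0 with limma-voom. The gene of the first list with the highest mean CPM was Rac2, a GTPase of blood cells, at 5762 ± 949.6 CPM over the 3 SDLN libraries (mean ± SD) against 2514 ± 1035 CPM over the 4 skin libraries (log2 fold change -1.2, adjusted p = 0.0866). In the NF-kappaB list Ikbkb and Casp8 had nearly equal mean CPM over the 7 libraries. Ikbkb, a kinase that activates NF-kappaB, was at 316 ± 56.05 CPM over the 3 SDLN libraries (mean ± SD) against 292 ± 163 CPM over the 4 skin libraries (log2 fold change -0.12, adjusted p = 0.943). Casp8, a protease of cell death and lymphocyte activation, was at 463 ± 45.4 CPM over the 3 SDLN libraries (mean ± SD) against 180.5 ± 84.9 CPM over the 4 skin libraries, with every skin library below SDLN (log2 fold change -1.36, adjusted p = 0.0843). Per kilobase Casp8 was the higher, at 160.0 ± 15.7 CPM per kb (mean ± SD, n = 3) in SDLN, against 62.4 ± 29.3 CPM per kb (n = 4) in skin, beside 16.6 ± 2.94 CPM per kb (mean ± SD, n = 3) in SDLN, against 15.3 ± 8.55 CPM per kb (n = 4) in skin for Ikbkb. Of the calcium genes 13 of 15 had positive log2 fold changes, as had 5890 of all 11376 tested genes. The median of the calcium genes was 0.77, beside 0.05 over all tested genes. In the Ras, MAP kinase and PI3 kinase list 23 of 25 were positive (median 0.611), and of the further brakes 11 of 16 (median 0.516). In the first list 7 of 19 were positive and in the NF-kappaB list 4 of 10, with medians of -0.243 and -0.091.

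**Figure D5:**
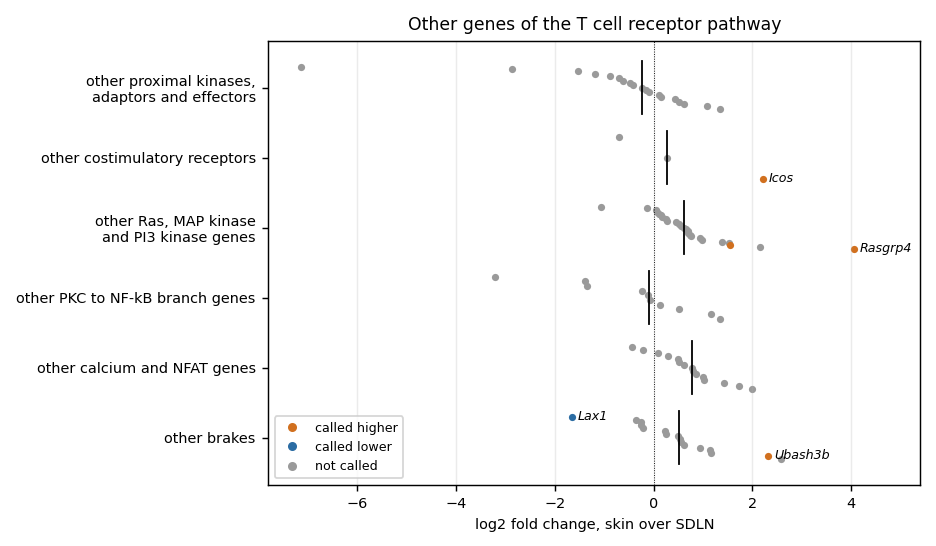
log2 fold change, skin over SDLN (horizontal axis), of 88 other genes of the pathway in 6 lists, 1 point per gene, with a black line at the median of each list. The 4 orange genes, Icos, Rasgrp4 and Ubash3b among them, were called higher and Lax1 (blue) lower; grey genes were not called.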

How the data were processed

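RNA of sorted Tregs was measured in 3 SDLN and 4 skin libraries. The authors deposited 1 table of whole-number counts of reads by gene symbol. The submitters' processing notes name HTSeq 0.6.1, TopHat2 2.0.12 with Bowtie2 2.1.0.0, CASAVA 1.8.2, SAMtools 0.1.19.0 and build mm10. Per the labels' protocols RNA was column-purified and made into cDNA with a SMARTer low-input kit. Which annotation and strand setting the counting used is not stated there. Columns were assigned by title. The 5 summary lines were left out; 61.2% to 70.4% of all table counts were alignments to several places.

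Genes were kept by filterByExpr (minimum count 10) and tested across all genes with the robust quasi-likelihood test of edgeR 4.0.16 in R 4.3.3, two-sided, with tissue as the sole term, TMM scaling and Benjamini-Hochberg adjustment over 11376 genes. CPM use TMM-scaled library sizes; SDs are over libraries. Alternatives used limma 3.58.1 and DESeq2 1.42.0. Exon lengths, positions and overlaps are from GENCODE M21, and upstream sequences from RefSeq, with windows taken for 32 of the 38 members. Windows were not taken for members on chromosome 18, Malt1 and Nfatc1. The marker Adgre1 was found under its synonym Emr1, and Trdc and Tcrg-C1 were not analysed here.

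Named genes are all members and genes of each list of other pathway genes. From each list these are up to 3 called genes in each direction or else the one with the highest mean CPM. Casp8, Cd28, Cd27, Mapk3, Map2k1, Kit, Pecam1, Cdh5 and Kdr were added after their values were seen. Some genes of these lists are counted but not reported here by name. The members, lists and alternatives were chosen with earlier results of these data known.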

Additional observations from a re-analysis of the deposited data

Results flagged for a closer look

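Among the 4 skin libraries, the level of Ppp3ca, the calcineurin subunit, in skin 2 was 294 CPM, far from the 115 to 128 CPM of the other 3: the gap made up 0.925 of the whole range, above Dixon's 95% critical value. It was 1 of 38 members examined in this way, and chance alone marks about 1 in 20 groups.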

How the results depend on the processing

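Counts are given as higher and lower in skin. By the test reported they were 2 and 3 members, 4 and 1 other pathway genes and 373 and 451 genes in all. Without scaling they were 2 and 5 members, 4 and 2 other pathway genes and 382 and 464 genes in all. With scaling on the CD3 chains they were 6 and 1 members, 14 and 0 other pathway genes and 880 and 355 genes in all. The test without the low-count filter gave 1 and 1 members, 3 and 1 other pathway genes and 188 and 70 genes in all, and a mean of at least 5 CPM gave 1 and 2 members, 4 and 1 other pathway genes and 285 and 99 genes in all. DESeq2 gave 5 and 7 members, 8 and 6 other pathway genes and 923 and 507 genes in all, and limma-voom gave 1 and 5 members, 3 and 4 other pathway genes and 271 and 729 genes in all. Fitting without robust estimation gave 2 and 2 members, 4 and 1 other pathway genes and 378 and 463 genes in all. RLE scaling gave 2 and 3 members, 4 and 1 other pathway genes and 368 and 458 genes in all. With 1 library left out in turn the ranges were 0 to 3 and 0 to 6 members, 0 to 7 and 0 to 4 other pathway genes and 33 to 582 and 9 to 822 genes, lowest without an SDLN library. Same-numbered libraries deviated from their group means with correlations of -0.052 to 0.087, beside -0.11 to 0.139 for other pairs, which can neither show nor exclude pairing. SDLN 3 had 3877 reads of Ddx3y and skin 3 had 2. The numbers were not taken to pair libraries. With the replicate block the counts were 0 and 0 members, 0 and 0 other pathway genes and 32 and 10 genes in all on 6 libraries. On 7 they were 0 and 0 members, 0 and 0 other pathway genes and 44 and 12 genes in all.

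Of the members' log2 fold changes under all alternatives, 560 kept sign and side of the threshold, 39 lost the call, 22 gained one and 25 changed sign, none of these in a called gene. Signs changed with scaling on the CD3 chains (Cd3g 0.12, Cd247 0.238, Cd4 0.14, Cd2 0.199, Cd5 0.0152, Cd6 0.165, Zap70 0.591, Lat 0.43, Lcp2 0.23, Bcl10 0.706, Ptprc 0.304 and Ubash3a 0.132), with the replicate block on 6 libraries (Rasa2 -0.0312, Dgkz -0.232 and Ptpn22 -0.0378) and on 7 (Rasa2 -0.0173, Dgkz -0.215 and Ptpn22 -0.0245). With 1 library left out the log2 fold change was -0.607 to 0.036 for Zap70, -0.131 to 0.529 for Nfatc1, -0.104 to 0.312 for Ptpn22, -0.12 to 0.432 for Grap2, -0.325 to 0.596 for Dgkz, -0.424 to 0.0694 for Bcl10 and -0.0033 to 0.311 for Rasa2. The cause of these changes was not tested. All members had at least 418 counts in each tissue.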
